A study of Mus musculus with 4 samples.

Results

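Iapp encodes islet amyloid polypeptide, or amylin, a peptide hormone that beta cells store and release together with insulin. It was chosen by name, with no measured value in the rule, and is 1 gene of the 38457 mouse features counted. It was followed in single cells of pancreatic islets from mice with the label WT or Sin3A mutant, captured by inDrop, a droplet method that tags messenger RNAs at their 3′ ends. Each label had 2 libraries, and a number in the titles, shared by 1 library of each label, splits the 4 into a pair called A and a pair called B. The sources used here do not give the allele, any Cre driver, the strain, the age, the number of animals behind a library or what the title numbers stand for. All runs of 4 values give WT and mutant of A, then WT and mutant of B.

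Amylin slows gastric emptying, lowers glucagon release and promotes satiety, and it acts through the calcitonin receptor joined to a receptor activity modifying protein. It is made as a precursor that the prohormone convertases Pcsk1 and Pcsk2 and the carboxypeptidase Cpe cut, after which Pam turns a terminal glycine into the amide that the active hormone needs. Human amylin can form fibrils that deposit in islets in type 2 diabetes, and rodent amylin does not, a property assigned to prolines in the middle of the peptide. Delta cells, the somatostatin producers of the islet, are known to make amylin too, whereas alpha cells, the glucagon producers, and polypeptide cells are known chiefly for their own hormones.

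The coding sequence is shown because it holds the hormone whose messenger was counted and the sites at which the enzymes described further on act. Iapp (ENSMUSG00000041681.2) lies on the plus strand of mouse chromosome 6, from 142298423 to 142303961 in GRCm38. Its coding transcript has 3 exons, of which 2 are coding, and the last one, from 142303306 to 142303961, holds the 3′ end that is tagged. The gene sits inside Slco1a5, which runs on the opposite strand from 142234227 to 142322981, and 0 Iapp exons overlap a Slco1a5 exon. Slco1a5, a transporter gene, held 28, 20, 5 and 12 counts over all insulin-gated cells, against 198618, 172861, 201950 and 166099 for Iapp. In the coding sequence, taken from the GRCm38 genome by the GENCODE M21 transcript, capitals mark the 38 codons between the 2 Lys-Arg cleavage sites, which spell amylin and the glycine that is lost on amidation and hold 3 proline codons and 2 cysteine codons:

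Iapp coding sequence, 282 bases: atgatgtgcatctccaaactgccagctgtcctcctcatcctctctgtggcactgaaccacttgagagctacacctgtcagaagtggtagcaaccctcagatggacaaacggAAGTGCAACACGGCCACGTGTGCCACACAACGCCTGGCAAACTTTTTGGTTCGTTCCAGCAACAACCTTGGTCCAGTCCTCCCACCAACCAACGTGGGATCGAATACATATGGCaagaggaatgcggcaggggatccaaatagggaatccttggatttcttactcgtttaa

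Windows before the annotated start are shown for Iapp and for the hormone genes it is read beside, Ins1 and Sst. All 3 are counted in the same cells. Each run holds the 250 bases before the start of the gene in RefSeq (GRCm38.p6), 5′ to 3′ on the strand of the gene, at chr6:142298175-142298424 (plus), chr19:52264047-52264296 (plus) and chr16:23890845-23891094 (minus). Capitals mark TAAT on either strand, the core letters that homeodomain factors such as Pdx1, Isl1 and Nkx6-1 can bind:

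Iapp promoter: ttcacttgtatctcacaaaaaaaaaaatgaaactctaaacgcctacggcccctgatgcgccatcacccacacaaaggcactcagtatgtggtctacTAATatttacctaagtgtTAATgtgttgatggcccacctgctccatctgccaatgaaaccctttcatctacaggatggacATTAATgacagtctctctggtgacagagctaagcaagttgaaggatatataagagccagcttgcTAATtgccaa

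Ins1 promoter: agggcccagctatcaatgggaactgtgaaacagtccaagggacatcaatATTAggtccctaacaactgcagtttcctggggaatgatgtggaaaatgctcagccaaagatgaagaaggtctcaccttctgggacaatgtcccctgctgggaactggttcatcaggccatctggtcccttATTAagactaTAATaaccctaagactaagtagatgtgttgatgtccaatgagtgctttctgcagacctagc

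Sst promoter: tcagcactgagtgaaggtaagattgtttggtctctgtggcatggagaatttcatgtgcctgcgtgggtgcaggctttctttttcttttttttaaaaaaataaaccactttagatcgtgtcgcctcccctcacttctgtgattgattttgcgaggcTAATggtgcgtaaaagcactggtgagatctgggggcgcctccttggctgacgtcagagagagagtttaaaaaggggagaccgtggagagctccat

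TAAT occurred 5 times before Iapp, where 2 matches on opposite strands overlap, 3 times before Ins1 and once before Sst. Among 32851 RefSeq promoter windows of the same length, 54.9% held it at least once and 5.54% held at least 5. The letters TGACGTCA, a cAMP response element, occurred before Sst and not in the other windows shown, and 1.55% of all windows held them. TATAA lay 27 bases before the annotated start of Iapp and 63 before that of Ins1, and 22.8% of all windows held it. The Sst window lacked TATAA. Whether these starts are the ones used in islet cells was not tested, so the windows need not cover like parts of the promoters. All these matches describe letters only.

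The libraries held 1302, 1323, 1878 and 2445 barcodes and 12835199, 9282495, 10350699 and 12236110 counts, and 1207, 1144, 1793 and 2382 cells were kept, with median counts of 9997, 7605, 5306 and 4448.5. Pairs of libraries shared 12 to 42 barcodes. Sin3a, the gene of the mutant label and the scaffold of a histone deacetylase complex, went against the label within A. In insulin-gated cells its level was 25, 51.7, 41.0 and 18.5 CPM, from 199, 324, 211 and 99 counts. CPM is a count scaled by the summed counts of the same gate in the same library. The sources used here do not say which bases the mutation changes, so counts at the 3′ end need not report it. Whether the labels of the A libraries match their genotypes was not tested. If those 2 were exchanged, each within-A difference given further on would change sign, so every label difference holds for the labels as given.

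Cells were placed in gates by the share of their counts that fell to each hormone, at a threshold of 2%, and neither Iapp nor Pyy entered any gate. Insulin-gated cells had at least 2% of Ins1 plus Ins2 and less of Sst, Gcg and Ppy, and the somatostatin, glucagon and polypeptide gates were set in the same way. They numbered 610, 688, 796 and 786 cells in the insulin gate, 46, 32, 45 and 93 in the somatostatin gate, 126, 127, 514 and 373 in the glucagon gate and 100, 50, 0 and 44 in a gate for cells with insulin and somatostatin both. Endothelial, mesenchymal, ductal and immune cells, which are not known to make amylin, were gated by marker lists, and their Iapp is taken as the background. The gates held the markers of their names: 9 beta cell genes that were measured summed to 3132 to 4523 CPM in insulin-gated cells against 207 to 1028 in somatostatin-gated cells. The sum of 7 delta cell genes ran from 4700 to 11501 CPM in somatostatin-gated cells against 240 to 543 in insulin-gated ones, and the sum of 7 alpha cell genes from 3756 to 8719 CPM in glucagon-gated cells against 575 to 965.

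The library labelled mutant B stood apart at the insulin gate. Of its insulin-gated cells 33.3%, 262 cells, had an insulin share between 2% and 3%, and another 116 cells lay just below the gate, between 1% and 2%. The other libraries had 4, 3 and 2 cells just above and 8, 3 and 3 just below. In mutant B the cells on either side of the threshold carried similar Iapp, 2.57% of counts just above and 2.60% just below, and their beta cell genes summed to 3368 and 2950 CPM. The gate therefore cuts through the insulin-bearing cells of that library. The class tests, the label tests of gated cells, the shares and the range over libraries were recomputed with gates at 1% and 5%, the relation of Iapp to insulin per cell with a gate on beta cell genes, and the cycling comparison, the variation between cells and the shares above background at 2% only.

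Iapp was among the most abundant messengers of insulin-gated cells, ranking behind only Ins1 and Ins2 in the first 3 libraries and first of all genes in mutant B. It made up 2.50%, 2.76%, 3.93% and 3.10% of counts, a mean of 3.07% ± 0.623 (SD, n = 4). Somatostatin-gated cells held 1.56%, 1.38%, 1.96% and 2.02%, a mean of 1.73% ± 0.313 (SD, n = 4), and Iapp ranked 3 there in every library, after Sst and Pyy. Iapp was lower in somatostatin-gated than in insulin-gated cells in 4 of 4 libraries, and the lowest insulin-gated library was above the highest somatostatin-gated one.

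Further down the order came polypeptide-gated cells with 0.721%, 1.09%, 0.600% and 0.768%, resting on only 21, 19, 15 and 14 cells and therefore not tested. Glucagon-gated cells followed with 0.321%, 0.179%, 0.268% and 0.445%. In such summed counts a few cells with much Iapp cannot be told apart from many cells with little. Endothelial cells stood at 0.0414%, 0.0255%, 0.0373% and 0.0261%, and mesenchymal cells between 0.0396% and 0.0481%. The insulin, somatostatin, polypeptide and glucagon gates did not overlap with each other over the 4 libraries. Cells with insulin and somatostatin both overlapped the somatostatin gate, and cells with any other pair of hormones, at 0.936% to 1.5%, overlapped the somatostatin and polypeptide gates. The non-endocrine gates, ductal cells at 0.0280% to 0.0540% included, overlapped among themselves. Immune cells gave 0.0417% to 0.106%, from 4 to 24 cells.

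**Figure D1:**
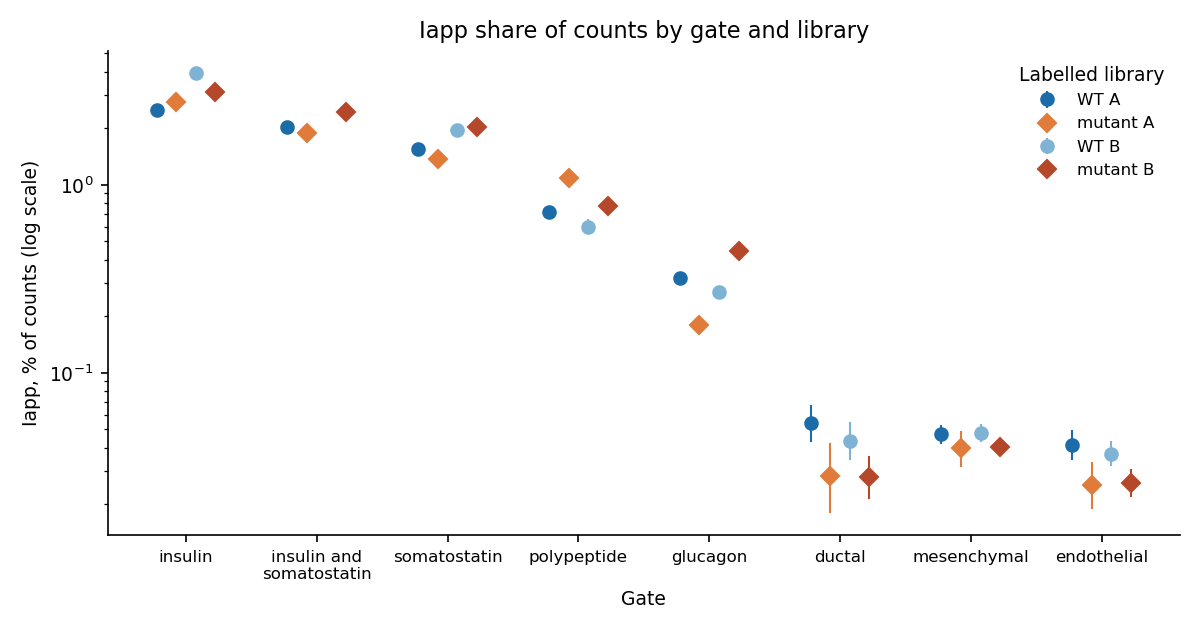
Iapp as a percentage of all counts (vertical axis, log scale) in each gate (horizontal axis) for the 4 labelled libraries, with bars for 95% Poisson intervals, which cover counting error only. Insulin-gated libraries sit at 2.50% to 3.93%, somatostatin-gated ones at 1.38% to 2.02%, glucagon-gated ones at 0.179% to 0.445%, and the non-endocrine gates shown at 0.0255% to 0.0540%.

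The step between somatostatin-gated and insulin-gated cells passed the test. With the library as a block, Iapp was lower by a log2 difference of -1.06 ± 0.157 (SE; adjusted p = 7.00e-10, edgeR quasi-likelihood test, 4 libraries), or 2.09-fold. In that comparison 13.5% of 15883 genes were called. By edgeR 770 (4.85%) were higher and 1370 (8.63%) lower in somatostatin-gated cells, and by DESeq2 722 were higher and 635 lower. Within libraries the somatostatin-gated share was 0.623, 0.499, 0.498 and 0.652 of the insulin-gated one. Leaving all hormone genes out of the totals gave ratios of 0.648, 0.436, 0.533 and 0.701, so the step was there with either denominator. Among the marker lists, edgeR called 3 of 7 delta cell genes higher in somatostatin-gated cells and 8 of 8 beta cell genes tested lower. Also called higher were 3 of 7 ductal, 2 of 8 endothelial and 2 of 8 mesenchymal markers tested, with none lower. The part of such cells or their RNA in the somatostatin gate was not tested. Beta cell messengers in that gate were highest in mutant B. Slc30a8 stood at 21.8, 6.4, 9.2 and 100.6 CPM and Nkx6-1 at 131, 12.8, 27.7 and 167 CPM. Insulin made up 0.356%, 0.237%, 0.148% and 0.639% of its counts. Whether low-insulin beta cells contribute to the Iapp of this gate was not tested.

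Cells with both insulin and somatostatin lay between the other gates. They held Iapp at 2.03%, 1.89% and 2.43% in the 3 libraries that had such cells, and Iapp fell by 0.49 ± 0.0826 (SE) on the log2 scale against insulin-gated cells (adjusted p = 1.39e-06, edgeR, 3 libraries, with WT B not in the fit). There 4.58% of 14713 genes were called, 356 (2.42%) higher and 318 (2.16%) lower by edgeR and 189 higher and 70 lower by DESeq2. Such cells made up 68.5%, 61.0%, 0 and 32.1% of the cells in these somatostatin-positive gates, so the somatostatin gate without insulin is the smaller fraction in A. Whether doublets or free RNA contribute to them was not tested, and only 40 of 6566 cells were called doublets and removed.

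Glucagon-gated cells were far lower in Iapp, by a log2 difference of -3.54 ± 0.236 (SE) from insulin-gated cells (adjusted p = 4.37e-07, edgeR, 4 libraries), an 11.6-fold step in a comparison that called 22.4% of 16516 genes, 9.44% higher and 13.0% lower. Delta cell genes summed to 1318 to 3920 CPM in the glucagon gate, above the 240 to 543 of the insulin gate, and beta cell genes to 346 to 519 CPM, and their part in its Iapp was not tested. Against the same glucagon-gated cells the somatostatin-gated ones were higher by 2.54 ± 0.196 (SE; adjusted p = 1.18e-09, edgeR), or 5.82-fold, with 12.0% of 9640 genes called, 6.67% higher and 5.37% lower.

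Counted cell by cell, nearly every insulin-gated and somatostatin-gated cell carried Iapp above the 99th percentile of background cells. A minority of glucagon-gated cells did. After thinning each cell to 2000 counts, 100% of insulin-gated and 100% of somatostatin-gated cells held at least 1 Iapp count in every library, but so did 86.0%, 71.7%, 86.3% and 87.5% of glucagon-gated and 53.8%, 30.3%, 51.7% and 43.0% of endothelial cells. Thinning left out 41, 128, 95 and 37 insulin-gated cells, 10, 9, 5 and 10 somatostatin-gated cells, 12, 21, 83 and 20 glucagon-gated cells and 5, 5, 6 and 24 endothelial cells with fewer counts. Without thinning the glucagon-gated shares were 97.6%, 87.4%, 95.1% and 93.8% and the endothelial ones 77.2%, 57.9%, 87.9% and 57.3%. Presence of a count is thus a weak measure here, because endothelial cells, whose Iapp is taken as the background, show it too.

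The share of cells above the 99th percentile of endothelial and mesenchymal cells of the same library was 98.9% to 100% in the insulin gate and 93.5%, 100%, 97.8% and 100% in the somatostatin gate. In the glucagon gate it was 19.8%, 12.6%, 32.5% and 41.0%. The percentile itself was 0.493%, 0.349%, 0.207% and 0.286% of counts, so the shares of different libraries were measured against unlike cutoffs. Only 0, 0, 1 and 0 endothelial and 2, 1, 2 and 7 mesenchymal cells lay above it. Most glucagon-gated cells thus lay below that percentile, taken as the top of the background range of the library, and 25, 16, 167 and 153 glucagon-gated cells lay above it. Median shares per cell were 2.29%, 2.75%, 3.78% and 2.73% in the insulin gate, 1.60%, 1.25%, 1.27% and 1.77% in the somatostatin gate and 0.157%, 0.0695%, 0.133% and 0.203% in the glucagon gate. The 95th percentile was 0.118%, 0.0679%, 0.109% and 0.0916% in endothelial and 0.124%, 0.104%, 0.132% and 0.136% in mesenchymal cells. The glucagon-gated median was thus above the endothelial value in each library, and above the mesenchymal one in all but mutant A.

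**Figure D2:**
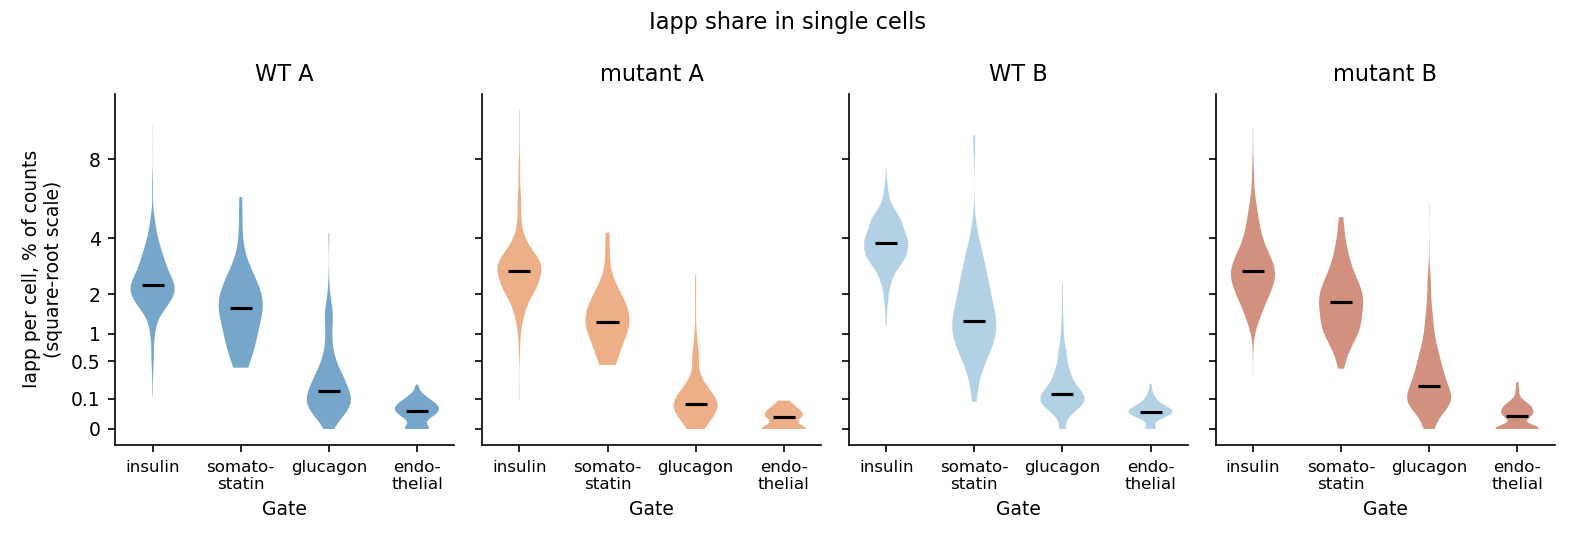
Iapp share of counts per cell (vertical axis, square-root scale) in 4 gates, with 1 panel per labelled library; shapes show the density of cells and black lines the median. Median insulin-gated cells sit at 2.29% to 3.78%, somatostatin-gated ones at 1.25% to 1.77%, and glucagon-gated ones at 0.0695% to 0.203% with a tail of cells at higher shares.

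The ratio of Iapp to insulin was compared between gates within each library. Both are tags at 3′ ends, so the ratio compares tags and is not per length. Insulin-gated cells had 16.7, 9.76, 45.9 and 63.0 Iapp counts per 100 insulin counts. Endothelial cells repeated the order over libraries, with 23.9, 11.1, 39.5 and 61.2, as did mesenchymal cells with 18.5, 12.5, 34.3 and 65.2. The values did not always match. In WT A the endothelial ratio lay above the insulin-gated one (95% interval 19.4 to 29.2). In WT B the mesenchymal ratio lay below the insulin-gated one (30.0 to 39.1). At the insulin-gated ratio, the insulin counts of endothelial cells would carry 69.8% to 116% of their Iapp, and those of mesenchymal cells 78.3% to 134%.

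Somatostatin-gated cells did not share that ratio. They had 437, 582, 1327 and 316 Iapp counts per 100 insulin counts, and their insulin counts would carry 3.82%, 1.68%, 3.46% and 19.9% of their Iapp. For glucagon-gated cells, at 192, 78.0, 182 and 938 per 100, the corresponding shares were 8.70%, 12.5%, 25.2% and 6.71%, and for polypeptide-gated cells 4.46%, 2.38%, 9.68% and 21.7%. These 3 gates admit only cells under 2% insulin and set no limit on Iapp. A high ratio and a low share are therefore partly set by the gate. The non-endocrine gates had the same limit on insulin. The part of free RNA in the Iapp of the somatostatin, glucagon and polypeptide gates was not tested beyond these ratios. Cells with insulin and somatostatin both, at 17.4, 9.15 and 64.0, stood close to the insulin-gated ratio of their libraries.

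**Figure D3:**
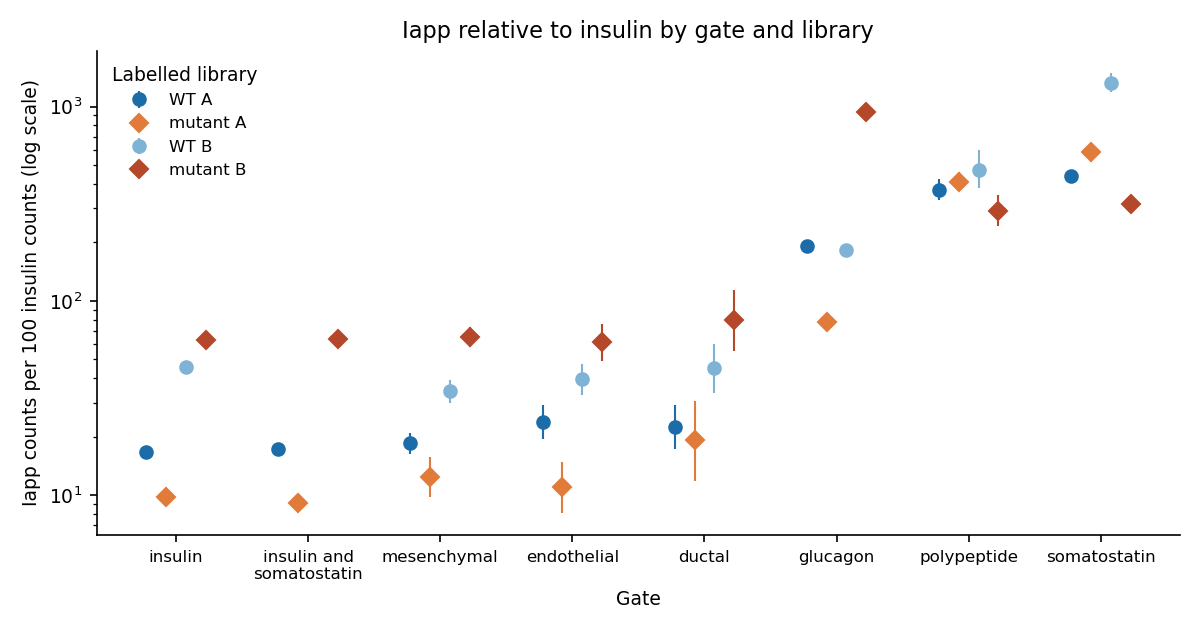
Iapp counts per 100 insulin counts (vertical axis, log scale) in each gate for the 4 labelled libraries, with 95% exact binomial intervals as bars. Mesenchymal and endothelial cells follow the insulin-gated ratio of their library, between 9.76 and 65.2, while glucagon-, polypeptide- and somatostatin-gated cells lie above it at 78.0 to 1327.

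Between libraries Iapp changed little while insulin changed much. In insulin-gated cells the insulin share was 14.9%, 28.2%, 8.57% and 4.92%, and Ins1 differed 8.15-fold and Ins2 3.98-fold between the highest and the lowest library. Iapp differed 1.57-fold, and its order over libraries was not that of insulin: WT B, with less insulin than either library of A, was highest in Iapp, and WT A was lowest. The ratio of Iapp to insulin therefore spanned 6.45-fold, lowest in mutant A and highest in mutant B.

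Set against all genes, the Iapp range was narrow but not exceptional. Among 7966 genes with at least 50 counts in each insulin-gated sum the median range was 1.91-fold, and 74.0% of genes had a wider range than Iapp. Of the 50 most abundant genes, with a median of 2.14-fold, 7 had a narrower range. In somatostatin-gated cells the range of Iapp was 1.47-fold, with 72.1% of 280 genes wider, and in glucagon-gated cells it was 2.48-fold, with 17.7% of 2339 genes wider. Leaving out WT B lowered the insulin-gated range to 1.24-fold. As a share of counts outside hormone genes, Iapp stood at 3.05%, 4.01%, 4.50% and 3.39% in insulin-gated cells, so that mutant A, where insulin took the largest share of counts, was below mutant B in Iapp by the one denominator and above it by the other.

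**Figure D4:**
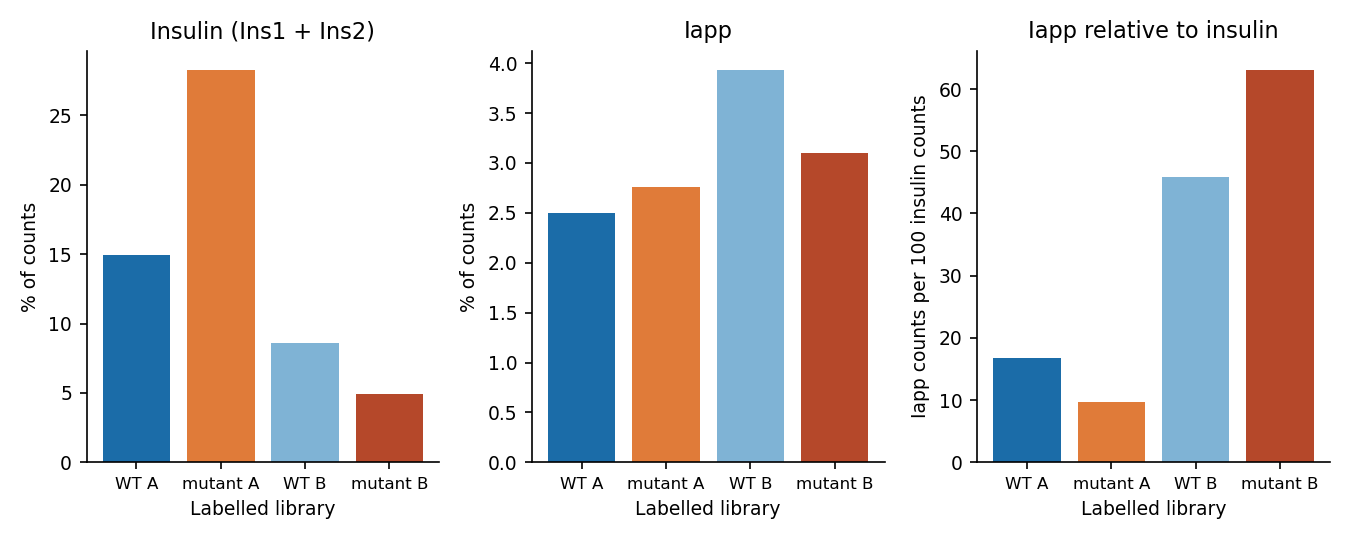
Insulin (left) and Iapp (middle) as percentages of counts, and Iapp counts per 100 insulin counts (right), in insulin-gated cells of the 4 labelled libraries, 1 bar per library from 0. Insulin spans 4.92% to 28.2% and Iapp 2.50% to 3.93%, and the ratio runs from 9.76 in mutant A to 63.0 in mutant B.

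Within a library, the relation of Iapp to insulin over cells was weak, and its sign in A depended on the measure. Over insulin-gated cells, Pearson's r between Iapp and insulin was 0.26, 0.13, 0.38 and 0.46 over 610, 688, 796 and 786 cells, and Spearman's rho 0.14, -0.07, 0.32 and 0.44, on log2 of counts per 10000 outside hormone genes plus 1. Ins1 and Ins2 correlated far more closely with each other in the same cells, at 0.84, 0.87, 0.77 and 0.89. All these values share the depth and the denominator of the cell and are given as descriptions. With all counts as the denominator r was 0.15, -0.08, 0.23 and 0.38 and rho -0.0014, -0.34, 0.18 and 0.37, so cells of mutant A richer in insulin ranked lower in Iapp. After thinning r was 0.21, 0.29, 0.30 and 0.46. With cells gated on beta cell genes, whatever their insulin, r was 0.36, 0.17, 0.66 and 0.66 and rho 0.14, -0.07, 0.33 and 0.45.

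Cells were also split into 4 equal bins by insulin, and outside hormone genes the highest bin held more Iapp than the lowest in each library. From the lowest to the highest bin insulin differed 2.11-, 2.19-, 2.46- and 4.03-fold, and Iapp 1.15-, 1.07-, 1.26- and 1.78-fold. In mutant A Iapp stood at 3.76%, 4.12%, 4.11% and 4.02% of counts outside hormone genes over the 4 bins, while in mutant B it stood at 2.65%, 2.90%, 3.28% and 4.70%, so the steepest relation belonged to the library whose cells reach down to the gate. As shares of all counts, Iapp was 2.84%, 2.90%, 2.72% and 2.44% over the bins of mutant A and 2.43%, 2.55%, 2.50% and 2.49% over those of WT A. By that denominator Iapp was lower in the highest than in the lowest bin of mutant A and nearly level in WT A, while both B libraries still had more in the highest bin. Cells of mutant B with at least 5% insulin held Iapp at 3.89%, beside 3.96% in such cells of WT B, and all its insulin-gated cells 3.10% beside 3.93%.

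**Figure D5:**
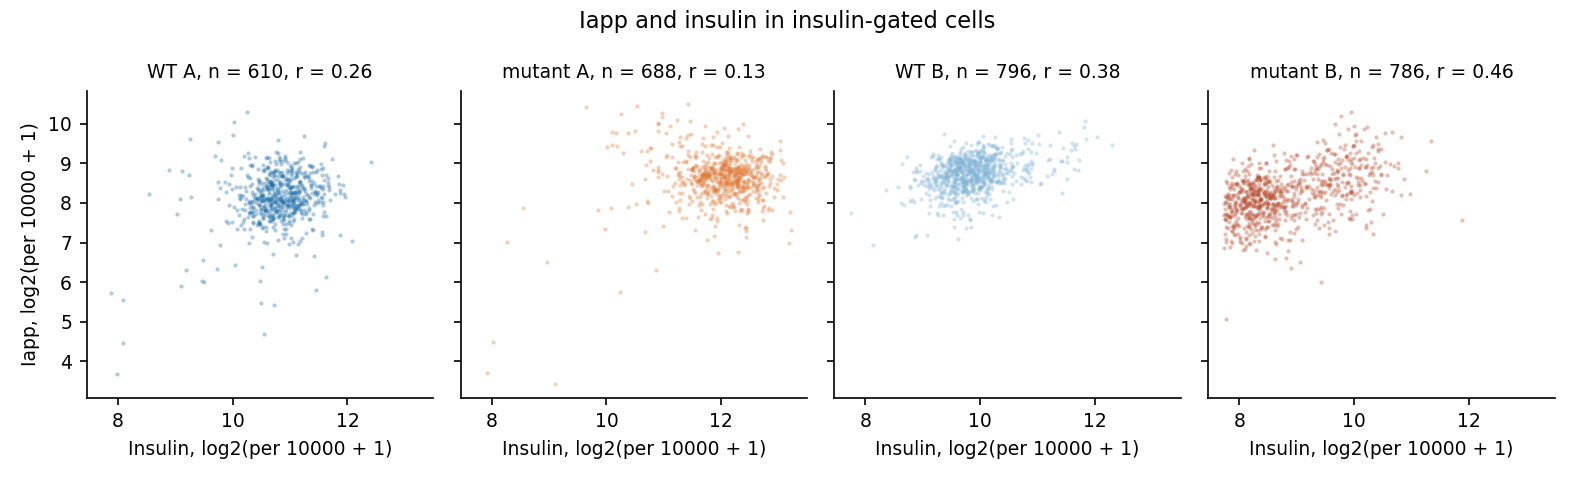
Iapp against insulin in single insulin-gated cells, both as log2 of counts per 10000 outside hormone genes plus 1, with 1 panel per labelled library and 1 point per cell. Pearson's r is 0.26, 0.13, 0.38 and 0.46, and the cells of mutant B crowd at the left edge, which is the gate.

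Cell-to-cell variation beyond counting noise was of the order of that of insulin. With cells thinned to 2000 counts outside hormone genes, the coefficient of variation above Poisson was 0.407, 0.268, 0.261 and 0.468 for Iapp, 0.289, 0.283, 0.383 and 0.537 for Ins1 and 0.349, 0.304, 0.511 and 0.690 for Ins2. Iapp varied more than both insulin genes in WT A and less than both in the other 3 libraries.

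In other gates Iapp was compared with the hormone of that gate. Over somatostatin-gated cells Pearson's r between Iapp and Sst was 0.63, 0.27, 0.51 and 0.20, from 46, 32, 45 and 93 cells, and over glucagon-gated cells r between Iapp and Gcg was 0.20, -0.02, 0.11 and 0.16.

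The comparison of labels addresses whether the level of Iapp differed between mutant and WT islet cells. It was tested in the insulin, somatostatin and glucagon gates and over all cells, and no difference of Iapp passed. In insulin-gated cells the log2 difference of labelled mutant from labelled WT was -0.06 ± 0.868 (SE; adjusted p = 1.00, edgeR quasi-likelihood test, 2 libraries per label), in a comparison that called 0% of 16235 genes. The SE was many times the difference itself. With the gate at 5% insulin in place of 2% the difference was 0.16, in the opposite direction.

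The remaining tests gave no call for Iapp either. The difference was -0.04 ± 0.477 (SE) in somatostatin-gated cells, where 0% of 4615 genes were called, and 0.12 ± 0.612 (SE) in glucagon-gated cells, with 0% of 11169 called. Over all cells it was -0.01 ± 0.714 (SE), with 0% of 20040 called, and each adjusted p was 1.00. At an unadjusted p under 0.05, edgeR gave 25 higher and 14 lower genes in insulin-gated cells, 13 and 0 in somatostatin-gated, 7 and 5 in glucagon-gated and 20 and 5 in all cells. DESeq2 called 1 gene in insulin-gated cells, lower, namely Pnliprp1, a pancreatic lipase relative of acinar cells, named here after its value was seen, and 0 in the other 3 tests. Its counts at the unadjusted threshold were 25 higher and 11 lower, 2 and 0, 8 and 3, and 17 and 4. In a simulation of the insulin-gated comparison over 15468 genes, 0 of 90 genes changed 4-fold were called.

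Within the title numbers the sign of the Iapp difference turned in insulin-gated and glucagon-gated cells, and in somatostatin-gated cells only by some measures. In insulin-gated cells the Iapp share labelled mutant, over that labelled WT, was 1.10 within A and 0.790 within B, in glucagon-gated cells 0.559 and 1.66, and in somatostatin-gated cells 0.885 and 1.03. Outside hormone genes the somatostatin-gated ratios were 0.886 and 0.991, and with the gate at 1% or 5% the mutant share was below the WT share in both pairs. Insulin moved much further, 1.89 within A and 0.575 within B in insulin-gated cells, and Sin3a likewise, 2.07 and 0.451. As shares per library, Iapp in insulin-gated cells averaged 3.21% ± 1.01 (SD, n = 2) for WT and 2.93% ± 0.244 (SD, n = 2) for the mutant label, and the exact permutation test, two-sided, gave p = 1.00, where 0.333 is the smallest it can give. In somatostatin-gated cells the averages were 1.76% ± 0.285 and 1.70% ± 0.457 (SD, n = 2 each), again with an exact p = 1.00.

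Whether the label difference of Iapp itself differed between somatostatin-gated and insulin-gated cells was tested as an interaction. It was -0.06 ± 0.460 (SE; adjusted p = 1.00, edgeR) in a test that called 0.0756% of 15883 genes, 0.0567% higher and 0.0189% lower. Cycling insulin-gated cells, those with at least 2 counts over 8 proliferation markers after thinning, held Iapp at 2.49%, 2.53%, 3.71% and 3.27% against 2.50%, 2.77%, 3.98% and 3.07% in the other insulin-gated cells. The log2 difference was -0.07 ± 0.035 (SE; adjusted p = 0.248, edgeR, library as a block) where 14.6% of 14254 genes were called, 8.08% higher and 6.51% lower, a comparison chosen after the data were seen.

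The list for processing of the amylin precursor holds the enzymes Pcsk1, Pcsk2, Cpe and Pam and also Scg5, a chaperone of Pcsk2, and Pcsk1n. Of its 6 genes, 3 passed between somatostatin-gated and insulin-gated cells. Of these 1 was higher and 2 were lower, where 4.85% of all genes tested were higher and 8.63% lower, with a median log2 difference of -0.18 beside -0.13 over all genes tested. The amidating enzyme Pam rose by 1.15 ± 0.17 (SE; adjusted p = 7.56e-10), from 300, 241, 309 and 339 CPM to 633, 763, 1106 and 666. The convertase Pcsk1 fell by 1.94 ± 0.24 on the log2 scale (adjusted p = 1.71e-14) and the carboxypeptidase Cpe fell by 0.79 ± 0.16 (adjusted p = 2.02e-05), each by edgeR. Pcsk2, the second convertase, stood at 2746, 2534, 2747 and 2353 CPM in insulin-gated cells and 2403, 3218, 2849 and 2177 in somatostatin-gated cells, a difference of -0.21 ± 0.16 that did not pass.

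Granule cargo genes split between the gates. Of 7, none was higher and 3 were lower in somatostatin-gated than in insulin-gated cells, where 4.85% of all genes tested were higher and 8.63% lower. Their median log2 difference was -0.39, beside -0.13 over all genes tested. The 3 lower ones were the zinc transporter Slc30a8 (-3.55 ± 0.24), the granin Chga (-2.37 ± 0.17) and Scg3 (-1.16 ± 0.16). In somatostatin-gated cells Slc30a8 rested on 6, 1, 2 and 50 counts. The granins Chgb and Scg2 did not pass, at 0.33 ± 0.16 and 0.04 ± 0.16. In glucagon-gated cells 6 of the 7 were lower and 1 higher, where 13.0% of all genes tested were lower and 9.44% higher, Scg2 by -2.08 ± 0.14 and Chgb by -1.74 ± 0.14 among the lower and Ptprn2 by 0.66 ± 0.17 as the higher, with a median of -1.26 beside 0.03 over all genes. In the same comparison 8 of 8 endothelial markers tested were higher, with a median of 1.74. Of 8 ductal markers tested 4 were higher and 1 lower, and of 8 mesenchymal ones 2 were higher and 1 lower. The endothelial list summed to 71.7 to 460.2 CPM in glucagon-gated and 23.1 to 87.6 CPM in insulin-gated cells, against 15140 to 17454 in endothelial cells, and the part of such cells or their RNA was not tested.

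Of 9 transcription factors known at the Iapp and insulin promoters, 8 were tested. In somatostatin-gated cells 5 were lower and 1 higher by edgeR, and 4 and 1 by DESeq2, with a median of -0.75, in the comparison that called 13.5% of all genes. Nkx6-1, a beta cell homeodomain factor, fell by 2.83 ± 0.21 on the log2 scale (adjusted p = 4.84e-38), and Nkx2-2 and Neurod1 fell by 1.53 ± 0.21 and by 1.37 ± 0.20. The somatostatin-gated sums held 36, 2, 6 and 83 counts of Nkx6-1. Pdx1, a central activator of both genes, differed less between these gates, with 190, 203, 112 and 67.8 CPM in insulin-gated against 113, 141, 50.7 and 50.3 in somatostatin-gated cells (-0.93 ± 0.22, adjusted p = 5.67e-04, edgeR). In glucagon-gated cells it stood at 4.0, 3.8, 6.4 and 3.7 CPM, from 4, 3, 17 and 7 counts (-4.80 ± 0.26). Isl1, a LIM homeodomain factor, was higher in both, by 1.30 ± 0.18 and by 1.31 ± 0.11, and the glucagon gate also had 5 lower and 1 higher of the 8 tested, where 22.4% of all genes were called. Mafa, an insulin gene activator of mature beta cells, held only 0 to 5 counts per insulin-gated sum.

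Among proteases that degrade amylin, Bace2 was the one that differed. It stood at 785, 423, 543 and 822 CPM in insulin-gated cells, 14.6, 0, 0 and 167 CPM in somatostatin-gated cells, from 4, 0, 0 and 83 counts, and 13.0, 2.6, 17.8 and 13.7 CPM in glucagon-gated cells. The differences from insulin-gated cells were -4.14 ± 0.24 and -5.73 ± 0.25 (adjusted p = 1.37e-65 and 1.12e-08, edgeR). In somatostatin-gated cells almost all Bace2 counts came from mutant B, the library in which insulin counts of that gate were also highest, at 0.639% of counts. Ide and Mme, the other proteases listed, did not pass in either comparison.

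Genes listed as receptor parts, and relatives of amylin, had few counts in the endocrine gates. Calcrl is on the list but is not the calcitonin receptor through which amylin acts, so its values do not concern that receptor. Ramp2 and Calcrl were far more abundant in endothelial cells, where Ramp2 stood at 841, 785, 756 and 898 CPM and Calcrl at 684, 390, 265 and 251 CPM. Calcr, the calcitonin receptor, had 2 to 6 counts per insulin-gated sum, 0 to 2 per somatostatin-gated sum and 0 to 5 per glucagon-gated sum, and did not reach the test. Of the 5 genes on that list 3 were tested between somatostatin-gated and insulin-gated cells. Only Calcrl was called, higher (2.27 ± 0.81, adjusted p = 0.0407, edgeR) on 0, 7, 1 and 1 counts in somatostatin-gated cells, a call that DESeq2 did not make. Of 4 relatives in the calcitonin peptide family, Calca alone was tested in glucagon-gated cells, higher by 1.57 ± 0.42 (adjusted p = 0.0178, edgeR) on 3, 8, 15 and 7 counts.

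Cells with insulin and somatostatin both were set against insulin-gated cells over 3 libraries, where 4.58% of all genes were called. Processing genes gave 1 higher and 1 lower of 6, granule cargo 3 lower of 7, receptor parts 1 higher of 3 tested, proteases 1 lower of 3 and transcription factors 1 higher and 2 lower of 8 tested. Bace2 fell there by 0.82 ± 0.12 on the log2 scale (adjusted p = 1.40e-09, edgeR), and Isl1 rose by 0.75 ± 0.13 (adjusted p = 2.34e-06). By DESeq2 the calls of Ramp2 (adjusted p = 0.553), Pcsk1 (0.245), Scg3 (0.237), Nkx2-2 (0.226) and Nkx6-1 (0.194) were lost.

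Somatostatin-gated cells were also set against glucagon-gated cells, the pair between which Iapp differed 5.82-fold. Of all genes tested there, 6.67% were higher and 5.37% lower, with a median log2 difference of -0.05. Of 7 granule cargo genes 2 were higher, Scg2 (2.18 ± 0.21) and Chgb (2.13 ± 0.20), and 1 lower, Slc30a8 (-2.42), with a median of 0.16. Of 7 transcription factors tested Pdx1 was higher (3.97) and 3 were lower, with a median of 0.05. Of 6 processing genes Pcsk1 was higher (2.39) and Cpe lower (-0.88), with a median of -0.17.

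No list member passed between labels by edgeR in the 3 gates tested or over all cells. In the interaction 1 did, Bace2 at 3.47 ± 0.68 (adjusted p = 7.08e-04, edgeR), which rests on the 83 counts of mutant B and had an adjusted p of 1.00 by DESeq2. Beta cell markers moved with it, 3 of 8 being called higher by edgeR in the same test with a median of 1.79, and 1 of 7 delta cell markers was lower. Of all genes tested 0.0567% were higher and 0.0189% lower, with a median of 0.05. DESeq2 called 0 genes in this test. The part of the beta and delta cell markers in the Bace2 value was not tested. In the class comparisons each list member called by edgeR had the same direction by DESeq2, though not always a call.

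Genes most like Iapp were sought by measures of the level. Over 28 sums of gate and library, among 14700 genes, the closest by Pearson's r of log2(CPM + 1) were the granin Scg2 (0.970), F2 (0.968), the prothrombin gene, Meig1 (0.956), a gene known from spermatogenesis, Insm1 (0.95), an endocrine transcription factor, and the granin Chgb (0.95). Ins2 and Ins1 stood lower, at 0.749 and 0.725, and Sst at 0.669. Sums of 1 library share cells' depth and free RNA, and the gates differ by cell type, so these values describe a shared pattern of levels.

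Within insulin-gated cells, among 775 genes, the median Spearman's rho over the 4 libraries was highest for Ins1 (0.27), followed by Scg2 (0.25), Gnas (0.21), the G protein alpha subunit, Gng12 (0.20), a G protein gamma subunit, and Scg5 (0.20), the chaperone of Pcsk2. Scg2 was positive in 4 of 4 libraries, at 0.24, 0.27, 0.24 and 0.30, and Scg5 at 0.18, 0.24, 0.21 and 0.10. Ins1 ran from -0.05 in mutant A to 0.44 in mutant B, and Gnas and Gng12 were at or below -0.01 in WT B. All these correlations are weak.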

How the data were processed

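The deposited values are whole-number counts per gene and cell barcode for 4 inDrop libraries of mouse islet cells, not normalized per the file contents. Per the labels' protocols, RNA was amplified by CEL-Seq and read on a NextSeq500. GRCh38 and GRCm38 are named as builds in the submitters' processing notes. The sources used here do not give the aligner, annotation, counting, strand use or barcode selection. Of 38459 features 38457 carry mouse names and the others, with at most 2 counts per library, were left out.

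The gene, the gates, the lists and the alternatives were chosen with earlier results of these data known. Barcodes with at least 500 counts, 250 genes and at most 25% mitochondrial counts were kept (6566 of 6948), Scrublet (scanpy 1.11.5) removed 40, and 6526 remained. Hormone gates at 2% and non-endocrine marker gates at 0.5% of a cell's counts defined classes, of which 4728 cells were endocrine. Counts were summed per library and gate, where a gate had at least 20 cells in each library tested, and compared by edgeR 4.0.16 (quasi-likelihood test, TMM, its filter on low counts, Benjamini-Hochberg adjusted p under 0.05 over all genes tested, SE as the absolute log2 difference over the square root of F), with DESeq2 1.42.0 as an alternative. The series names biological replicates, and libraries are the units of the tests. edgeR pools the spread over genes, so a p-value does not rest on a gene's own spread among the libraries alone. The test was checked on simulated data: for somatostatin-gated against insulin-gated cells, over 14857 genes, 53 of 93 genes changed 4-fold and 24 of 94 changed 2-fold were called. Intervals are 95% Poisson or exact binomial and cover counting error only, since the collapsing of molecular identifiers is not given. Named genes are Iapp, the hormone genes, members of 6 gene lists and the 5 genes most like Iapp by each of 2 measures, with predicted genes passed over. Alternatives were DESeq2, no filter, no hormone genes, at most 10% mitochondrial counts, doublets kept, gates at 1% and 5%, a gate on beta cell genes, a replicate block and each library left out.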

Additional observations from a re-analysis of the deposited data

Results flagged for a closer look

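In 3 gates the Iapp share of all counts, with the gate at 2%, moved in opposite directions within the title numbers, as a log2 ratio of labelled mutant to labelled WT. In insulin-gated cells it was 0.144 within A and -0.341 within B. In somatostatin-gated cells it was -0.177 within A and 0.0468 within B, but -0.174 and -0.0137 outside hormone genes, with no turn. With the gate at 1% those shares went from 1.56% for WT to 1.43% for mutant within A and from 2.10% to 1.86% within B, and with the gate at 5% from 1.55% to 1.26% and from 2.18% to 2.14%, lower in both pairs. In glucagon-gated cells, where the split was widest, it was -0.840 within A and 0.732 within B. Each number rests on 1 library per label, so these differences between the title numbers were not tested. Insulin in the same insulin-gated cells gave 0.918 and -0.799, and Sin3a 1.05 and -1.15, and their part in the Iapp values was not tested.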

How the results depend on the processing

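The class comparisons of Iapp kept their direction and their call under each alternative run, each library left out included: somatostatin-gated against insulin-gated cells from -1.40 to -0.88, glucagon-gated against insulin-gated from -3.77 to -3.27, cells with both hormones against insulin-gated from -0.80 to -0.34, and somatostatin-gated against glucagon-gated from 2.37 to 2.70 on the log2 scale. No label difference passed the threshold under any alternative, and several turned sign. With a gate at 5% the insulin-gated difference was 0.16 and the share difference 0.0664 percentage points. The median over cells in place of summed counts gave 0.0733 points for the somatostatin-gated share. Leaving out each library in turn gave -0.28 to 0.16 in insulin-gated, -0.29 to 0.17 in somatostatin-gated and -0.84 to 0.71 in glucagon-gated cells, -0.40 to 0.35 for the interaction, and -0.998 to 0.434 and -0.381 to 0.266 points for the insulin- and somatostatin-gated shares. The cause was not tested.

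The title number as a replicate block gave -0.0562 in glucagon-gated cells, -0.05 in insulin-gated, -0.04 in somatostatin-gated and -0.01 over all cells, with no Iapp call changed. Same-numbered libraries deviated together with r of 0.0646, 0.278, 0.342 and 0.232 in insulin-gated, glucagon-gated, somatostatin-gated and all cells, but with only 2 pairs they are taken to share a number. The block called 1 gene in insulin-gated cells where the fit without it called 0. The median r between Iapp and insulin per cell, 0.32, was 0.51 with cells gated on beta cell genes. The range over libraries was 1.62 with a gate at 5% and 1.24 to 1.57 with a library left out. The median of Iapp per 100 insulin counts, 31.3, ran from 16.7 to 45.9 with a library left out.

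Counts of called genes moved more. Somatostatin-gated against insulin-gated cells gave 1357 by DESeq2 and 3479 without a filter in place of 2140, somatostatin-gated against glucagon-gated 753 by DESeq2 and 675 without WT B in place of 1161, and cells with both hormones against insulin-gated 259 by DESeq2, 236 with a gate at 5% and 154 without WT A in place of 674. The interaction gave 12 calls, 0 by DESeq2 and with a gate at 5%, 6 with a gate at 1% and 6 to 29 with a library left out (29 without mutant A), and cycling cells 1304 without WT B in place of 2080. Between labels, where edgeR called 0, leaving out a library gave up to 5 in insulin-gated cells (without WT A), 21 in somatostatin-gated and 3 in glucagon-gated cells (both without mutant A) and 56 in all cells (without mutant B), and no filter gave 5 in insulin-gated and 3 in somatostatin-gated cells. The label comparison of cells with both hormones could not be fitted, since WT B had 0 such cells.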

Other observations

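Cells outside every gate held unlike amounts of Iapp in the 4 libraries. The 48, 27 and 87 such cells of WT A, mutant A and WT B had 0.380%, 0.486% and 0.115% of counts in Iapp, and the 367 of mutant B had 1.28%, with Iapp ranking 4 among their genes. In mutant B 42.5% of them lay above the background range, against 22.9%, 14.8% and 11.5%, each by the cutoff of its own library. Cells with another pair of gated hormones, 44, 93, 59 and 33 in number, held Iapp at 1.38%, 1.5%, 0.936% and 1.40%.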
